A study of Mus musculus with 12 samples.

Results

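The genes of cholesterol and fatty acid synthesis were examined in mouse bone marrow neutrophils cultured with bile acids (BAs). They comprised 36 genes, picked by symbol for their place in lipid synthesis, out of 29737 gene rows. All 36 were in the count table and all 36 passed the filter on low counts. By role they fell into 8 genes of the mevalonate and isoprenoid steps and 11 genes that make squalene and take it to cholesterol. The others were 5 for the SREBP transcription factors and their control, 4 of sterol handling and 8 of fatty acid synthesis and desaturation.

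Ly6G+ neutrophils of wild-type (WT) mouse bone marrow, isolated with magnetic beads, were kept for 24 h in RPMI 1640 medium with 10% fetal bovine serum. They received PBS as the control, taurocholic acid (TCA) at 200 μM, glycocholic acid (GCA) at 200 μM or tauro-beta-muricholic acid (Tβ-MCA), and each of the 4 groups had 3 samples of RNA-seq. For Tβ-MCA the labels give 10 μM while the methods give the same 200 μM as for the other BAs, so Tβ-MCA was not tested against TCA or GCA. No source used here states that the 3 samples of a group came from separate mice, so p-values measure only the spread between these samples. The serum in the medium supplies cholesterol and fatty acids to every group, PBS included.

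Cells make cholesterol from acetyl-CoA through mevalonate, isoprenoid units, squalene and lanosterol. The transcription factors SREBP-2 and SREBP-1 (genes Srebf2 and Srebf1) drive the enzymes of sterol and fatty acid synthesis. They are escorted to activation by Scap and held back in the endoplasmic reticulum by Insig proteins when sterols are plentiful, so the enzyme genes are known to rise together when cells lack sterol. BAs are end products of cholesterol, and in the liver they act on nuclear receptors that control sterol genes. TCA and GCA carry the same cholic acid with taurine or glycine attached, and Tβ-MCA is the taurine conjugate of beta-muricholic acid, a BA of rodents.

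Total counts per sample ran from 32757389 to 41375925, and the 36 genes held between 0.172% and 0.199% of them. A level of 3 counts, the floor used here, corresponded to between 0.0725 and 0.0931 CPM, which are counts scaled to a common library size with TMM factors. Floors and intervals for counts cover counting error only. RNA of neutrophil markers was plentiful, with a summed level of 11 neutrophil genes between 38391 and 59357 CPM in every sample. S100a9 and Ngp made up most of it with PBS, at means of 22959 and 16026 CPM, while Ly6g was at 19.1 CPM. Summed markers of B cells, T cells, basophils and mast cells, and erythroid cells were low but not at 0. The 4 B cell markers summed to at most 7.24 CPM, the 3 T cell markers to at most 2.38 CPM and the 3 basophil and mast cell markers to at most 13.9 CPM. The 4 erythroid markers summed to at most 2.71 CPM, and 1 of the 4 was at 0 throughout the TCA group and 1 throughout the Tβ-MCA group.

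The 9 monocyte and macrophage markers set the Tβ-MCA samples apart. Their summed level was 1142, 1141 and 1155 CPM with PBS and 324.3, 394.6 and 883.2 CPM in Tβ-MCA samples 3, 4 and 5. Sample 5 of Tβ-MCA thus lay between the other Tβ-MCA samples and the PBS samples. With TCA the sum was between 1007 and 1191 CPM and with GCA between 809.2 and 1111 CPM. The 11 neutrophil markers together were also lower with Tβ-MCA (38391 to 43722 CPM) than with PBS (47931 to 59357 CPM), and the 3 eosinophil markers summed to between 52.4 and 120.2 CPM with Tβ-MCA and between 134.4 and 233.9 CPM with PBS. In bulk RNA, fewer cells of a type and less RNA per cell cannot be told apart. The part of these cell type differences in the results with Tβ-MCA was not tested. Those results are also given with each sample left out, and leaving out sample 5 keeps the samples that lay farthest from PBS in these markers.

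The proximal promoters of 3 members are shown. Mvd and Nceh1 were among the few members that rose with Tβ-MCA, and Tm7sf2 and Fads1, which also rose, are not shown. Hmgcs1, the classical sterol-regulated synthase at the entry of the pathway, did not pass the test. It was chosen because its window held the sterol regulatory element described below. Bases are from RefSeq on GRCm38.p6, read 5′ to 3′ along the gene's strand. Those of Mvd and Hmgcs1 run up to the base before the RefSeq start, and that of Nceh1 stops earlier, at the base before the first exon in the count table. Capitals mark the CCAAT box (CCAAT, or ATTGG on the other strand), which binds the NF-Y factor, and the sterol regulatory element searched as TCACNCCAC on both strands, which binds SREBPs. No match of one motif overlapped a match of the other in the sequences shown. Mvd lies at chr8:122443423-122443672 on the minus strand, Nceh1 at chr3:27182754-27182964 on the plus strand and Hmgcs1 at chr13:119690101-119690350 on the plus strand.
Mvd: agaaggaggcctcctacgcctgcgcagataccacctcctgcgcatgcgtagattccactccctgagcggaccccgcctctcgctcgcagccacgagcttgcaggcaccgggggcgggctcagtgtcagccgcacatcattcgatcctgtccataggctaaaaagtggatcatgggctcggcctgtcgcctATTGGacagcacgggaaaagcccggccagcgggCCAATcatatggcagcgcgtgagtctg
Nceh1: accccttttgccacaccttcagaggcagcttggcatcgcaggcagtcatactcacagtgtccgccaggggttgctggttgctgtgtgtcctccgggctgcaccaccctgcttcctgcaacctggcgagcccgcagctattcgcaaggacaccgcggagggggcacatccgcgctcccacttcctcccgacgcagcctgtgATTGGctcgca
Hmgcs1: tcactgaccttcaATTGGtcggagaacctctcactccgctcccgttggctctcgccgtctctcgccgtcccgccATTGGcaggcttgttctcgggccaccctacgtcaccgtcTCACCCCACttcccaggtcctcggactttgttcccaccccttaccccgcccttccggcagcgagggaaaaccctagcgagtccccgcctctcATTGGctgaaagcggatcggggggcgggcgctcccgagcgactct

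The printed Mvd window held 2 CCAAT boxes, Nceh1 held 1 and Hmgcs1 held 3. The sterol regulatory element, for which Hmgcs1 was chosen, lay 137 bases before the RefSeq start of Hmgcs1. It was absent from the printed Mvd and Nceh1 sequences, and this contrast follows from the choice of genes. The search covered windows from 250 bases before to 50 bases after each start, and RefSeq windows were matched for 29 of the 36 genes. A CCAAT box occurred in 24 of those 29 genes (82.8%), against 41.1% of the 27025 genes with a window. The sterol regulatory element as spelled above occurred in 1 of the 29 genes (3.45%), against 1.44% of all genes with a window. A match describes letters in this window and not a bound site.

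RNA of most of the pathway was found in these neutrophil samples. The same samples held RNA of monocyte markers and of 5 genes of cycling cells, which summed to between 2409 and 2993 CPM. Which cells the RNA of the 36 genes came from was not tested. Levels between genes are compared as RPKM, read counts scaled by gene length and library total as deposited by the authors. In the PBS group, 33 of the 36 genes had a mean of at least 1 RPKM and 12 had at least 10 RPKM, with a median of 5.65 RPKM. The spread within a group was small for most of them, with a median coefficient of variation of 9.88% that ran from 3.72% for Srebf1 to 48.3% for Scd1.

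Of the mevalonate and isoprenoid genes, Mvd, the decarboxylase that makes isopentenyl diphosphate, had the highest level of all 36 genes at 84.0 ± 5.61 RPKM (SD, n = 3) with PBS. The kinase before it, Pmvk, was at 42.4 ± 1.34 RPKM. Hmgcs1, which makes HMG-CoA, was at 40.3 ± 0.870 RPKM, and Fdps, which makes farnesyl diphosphate, was at 29.6 ± 1.67 RPKM. The lowest of this group was Acat2, the cytosolic thiolase that joins acetyl-CoA units, at 2.63 ± 0.0208 RPKM. The means of Pmvk and Hmgcs1, neighbours in this order, were separated by less than the sum of their SDs.

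Levels were lower in the genes that make squalene and take it to cholesterol. Their median was 5.54 RPKM over the 11 genes, against 21.5 RPKM over the 8 mevalonate and isoprenoid genes. Fdft1, the squalene synthase, was the highest of its 11 genes at 21.1 ± 1.63 RPKM with PBS. Sqle, the squalene epoxidase that is a control point of the pathway, was at 5.36 ± 0.519 RPKM, and Dhcr7, the last reductase of one branch, was at 0.848 ± 0.143 RPKM. Among the control genes Srebf2 had 22.6 ± 0.234 RPKM and Srebf1 had 4.20 ± 0.165 RPKM, and the lowest was Scap at 1.53 ± 0.190 RPKM. Of the sterol handling genes, Soat1, which esterifies cholesterol for storage, was highest at 27.4 ± 1.47 RPKM and Nceh1, which hydrolyses cholesteryl esters, was lowest at 7.45 ± 0.814 RPKM.

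The fatty acid genes covered the widest range. Acly, which supplies cytosolic acetyl-CoA from citrate, was at 36.5 ± 2.79 RPKM with PBS. Of the stearoyl-CoA desaturases, Scd2 was at 5.77 ± 1.02 RPKM while Scd1 was at 0.0592 ± 0.0461 RPKM. Scd1 had between 2 and 30 counts in a sample, so the interval of each of its fold changes was wide.

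**Figure D1:**
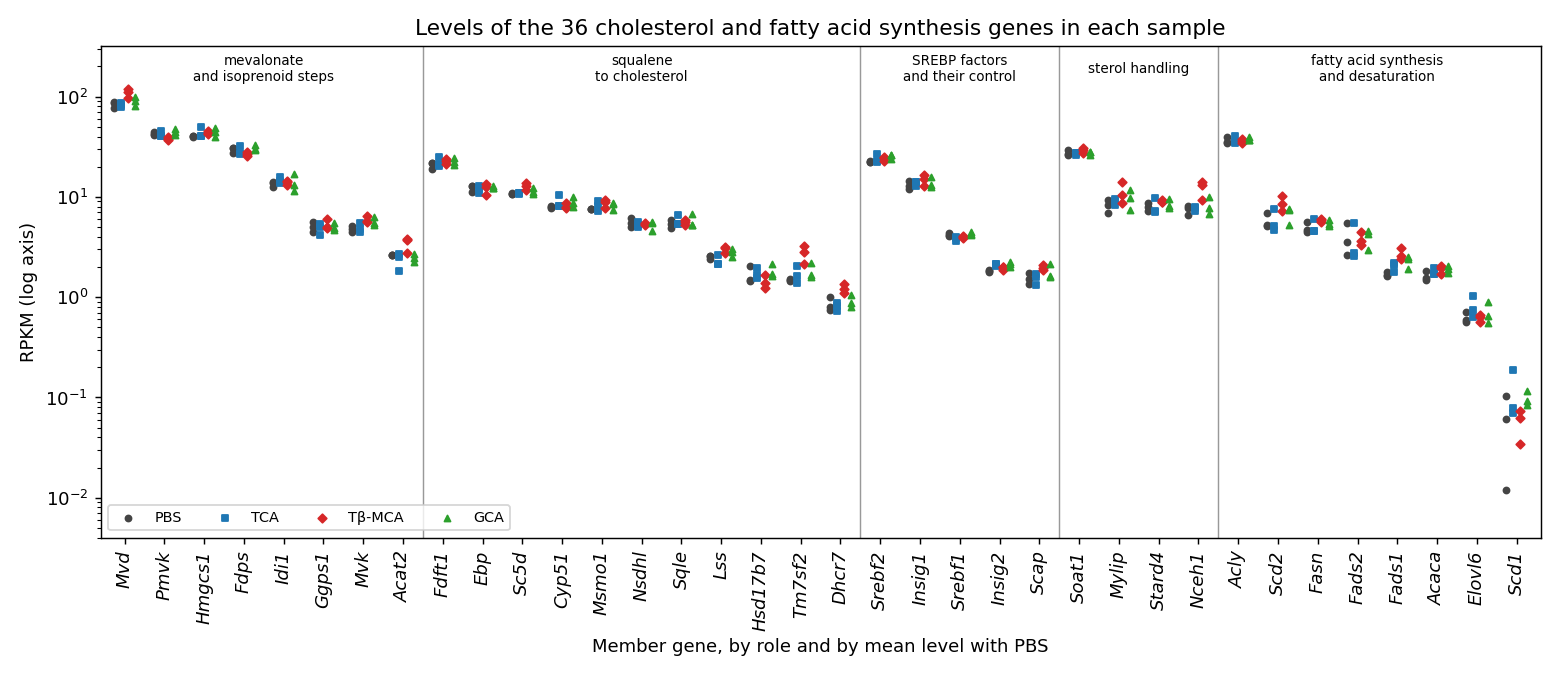
Level of each of the 36 genes in RPKM (log axis) in the 12 samples, ordered by role and coloured by treatment, with 1 point for each sample. Mvd, at 84.0 RPKM on average with PBS, lies at the top and Scd1, at 0.0592 RPKM, at the bottom, and within most genes the points of the 4 treatments lie close together compared with the distance between genes.

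With Tβ-MCA 4 of the 36 genes rose and none fell. These were Tm7sf2, a sterol reductase after lanosterol; Fads1, the delta-5 desaturase that makes polyunsaturated fatty acids; Nceh1, the neutral cholesteryl ester hydrolase; and Mvd. The rises were between 1.26-fold and 1.79-fold, and no member reached a 2-fold change with an unadjusted p under 0.05, as 2.95% of all genes did. The 4 genes come from 4 of the 5 role groups, and none of the SREBP control genes passed the test.

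The test was edgeR's quasi-likelihood test, and a gene passed at a p under 0.05 after Benjamini-Hochberg adjustment over the 16761 genes tested. It called 11.1% of the members, against 7.62% of all genes tested (745 higher, which is 4.44%, and 533 lower, which is 3.18%). With scaling by total counts in place of TMM the split over all genes was 1013 higher and 395 lower, and 6 members were called, all higher. The comparisons of Tβ-MCA, TCA and GCA with PBS share the same 3 PBS samples.

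Tm7sf2 had 5.25, 5.15 and 5.34 CPM in PBS samples 3, 5 and 6 and 11.2, 9.59 and 7.41 CPM in Tβ-MCA samples 3, 4 and 5. All Tβ-MCA samples were above all PBS samples, and sample 5 was the nearest to them. The gene was 1.79-fold higher with Tβ-MCA, a log2 fold change of 0.84 with an SE of 0.17 (95% interval 0.47 to 1.21, edgeR adjusted p = 0.0208). Tm7sf2 lies at chr19:6062821-6068373 on the minus strand of GRCm38, and its exons overlap those of Vps51 on the same strand, so the split of reads between both genes is uncertain.

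Fads1 had 6.25, 5.71 and 5.74 CPM with PBS and 10.4, 8.61 and 8.19 CPM with Tβ-MCA. The groups did not overlap. The log2 fold change was 0.62 with an SE of 0.14 (95% interval 0.33 to 0.91, 1.53-fold, edgeR adjusted p = 0.0235). The neighbouring delta-6 desaturase, Fads2, had a log2 fold change of -0.09 with an SE of 0.34, and its test did not pass.

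Nceh1 had 35.2, 40.6 and 42.8 CPM with PBS and 67.4, 71.4 and 48.5 CPM with Tβ-MCA, so that sample 5 again stood nearest to the control. Its log2 fold change was 0.66 with an SE of 0.14 (95% interval 0.35 to 0.97, 1.58-fold, edgeR adjusted p = 0.0247). Soat1, the enzyme of the opposite reaction, differed by 0.05 on the log2 scale with an SE of 0.065, and its 95% interval of -0.09 to 0.19 excluded a change of the size seen for Nceh1.

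Mvd had 148, 164 and 162 CPM with PBS and 218, 202 and 177 CPM with Tβ-MCA. All samples with Tβ-MCA were higher, and the rise of 0.33 on the log2 scale (SE 0.086, 95% interval 0.15 to 0.51, 1.26-fold, edgeR adjusted p = 0.0328) was the smallest of the 4. The step just before it and a later step had the opposite sign. Pmvk differed by -0.20 on the log2 scale (SE 0.081) with 77, 72.8 and 70.9 CPM against 63.4, 61.8 and 66.9 CPM with Tβ-MCA, and its edgeR adjusted p of 0.136 did not pass. Fdps, with -0.19 (SE 0.084) and no overlap between the groups, also did not pass (edgeR adjusted p = 0.187).

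The 4 calls depended on which samples were in the fit. With only the PBS and Tβ-MCA samples in it, the log2 fold changes stayed at 0.84, 0.62, 0.66 and 0.33 for Tm7sf2, Fads1, Nceh1 and Mvd, but none passed, with edgeR adjusted p between 0.0576 and 0.0737. Without Tβ-MCA sample 5 the log2 fold changes were 0.98 for Tm7sf2, 0.68 for Fads1, 0.81 for Nceh1 and 0.41 for Mvd, with edgeR adjusted p between 0.000304 and 0.00474, and 6 members passed. When any other sample of the pair of groups was left out, each gene kept its direction but none passed, with adjusted p from 0.0506 to 0.116 for Tm7sf2, 0.0576 to 0.116 for Fads1, 0.0506 to 0.126 for Nceh1 and 0.0672 to 0.157 for Mvd.

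**Figure D2:**
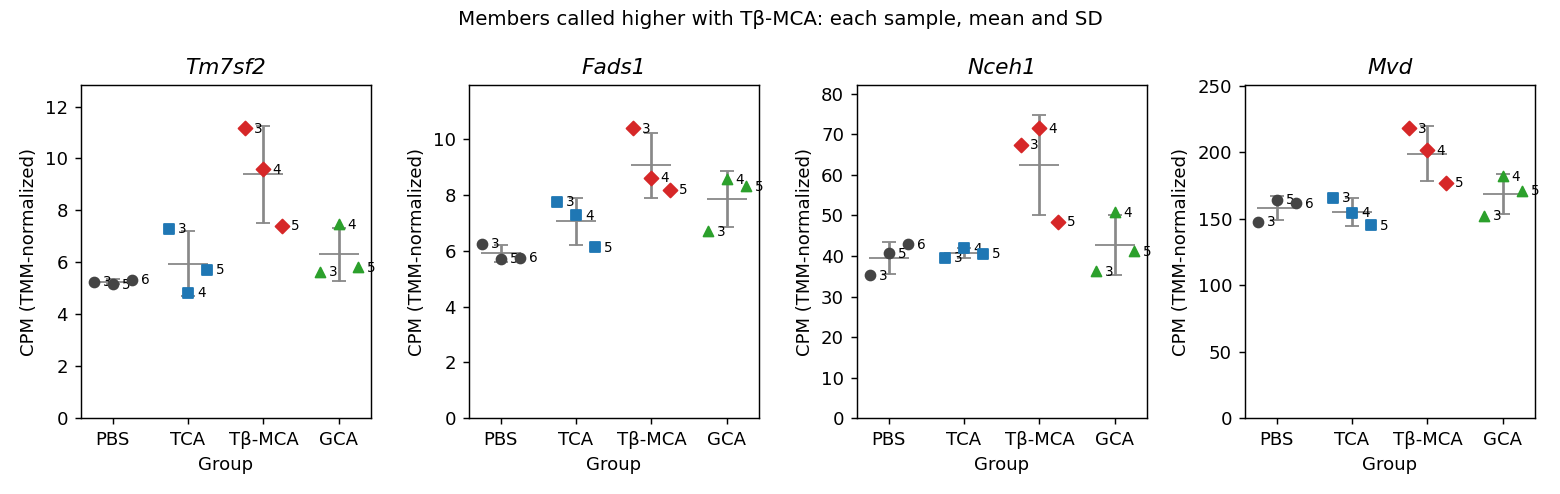
CPM of Tm7sf2, Fads1, Nceh1 and Mvd in each of the 12 samples, numbered as the samples are, with a line at the mean of each group and whiskers of 1 SD. In each panel the 3 Tβ-MCA samples lie above the 3 PBS samples, which for Tm7sf2 means 7.41 CPM or more against 5.34 CPM or less.

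Over all 36 genes, these 4 included, most differences with Tβ-MCA were small, and both signs occurred. Scd2, Dhcr7 and Mylip did not pass but had larger fitted differences than Mvd, as given below. The median log2 fold change of the 36 genes was 0.06, against 0.00 for all genes tested, and 24 members (66.7%) were fitted above 1-fold, against 50.6% of all genes. At an unadjusted p under 0.05, 9 members were higher and 2 lower, against 12.6% and 12.3% of all genes. The groups did not overlap for 11 members that were higher, against 14.1% of all genes, and for 3 that were lower, against 12.8% of all genes. For 25 of the 36 genes (69.4%) the 95% interval lay within 1.5-fold in either direction, which held for 53.6% of all genes.

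Among the mevalonate and isoprenoid genes, 1 of 8 passed and the median log2 fold change was 0.04. Hmgcs1 had 130, 133 and 132 CPM with PBS and 134, 141 and 139 CPM with Tβ-MCA, a difference of 0.06 on the log2 scale (SE 0.089, edgeR adjusted p = 0.713). The groups of Hmgcs1 did not overlap, yet its interval of -0.13 to 0.25 spanned 0. Mvk, the first kinase, differed by 0.26 (SE 0.11, edgeR adjusted p = 0.149), and Idi1 and Ggps1 differed by 0.00 and 0.02. Acat2 had 6.91, 6.77 and 6.66 CPM with PBS and 9.54, 9.10 and 6.93 CPM with Tβ-MCA. The groups of Acat2 did not overlap, and it did not pass.

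Among the 11 genes from squalene to cholesterol, Tm7sf2 passed and the median log2 fold change was 0.05. The 2 nearest to the threshold were at the end of the route. Dhcr7 had 6.02, 4.35 and 4.61 CPM with PBS and 6.94, 7.72 and 6.26 CPM with Tβ-MCA (0.48 on the log2 scale, SE 0.15, edgeR adjusted p = 0.0677), and Sc5d, the lathosterol desaturase, had 53.4, 52.0 and 52.7 CPM and 60.5, 64.6 and 56.3 CPM (0.20, SE 0.068, edgeR adjusted p = 0.0844). Both passed when Tβ-MCA sample 5 was left out. With all 12 samples, Dhcr7 also passed with DESeq2, with total-count scaling and with no filter, and Sc5d with total-count scaling. Of the enzymes before Dhcr7 and Sc5d, Sqle, Cyp51 and Fdft1 differed by 0.01, -0.02 and 0.05 on the log2 scale. Lss, the cyclase between Sqle and Cyp51, had a mean of 27.5 CPM with PBS and 31.8 CPM with Tβ-MCA. Its groups did not overlap, and it did not pass. Msmo1 and Nsdhl, which remove methyl groups from the sterol ring, differed by 0.15 (SE 0.092) and -0.09 (SE 0.10), and Ebp and Hsd17b7 by -0.07 and -0.25.

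None of the 5 SREBP control genes passed. Srebf2 had 117, 113 and 112 CPM with PBS and 118, 111 and 124 CPM with Tβ-MCA, and its groups overlapped (0.05 on the log2 scale, SE 0.079). Srebf1 had 25.3, 23.2 and 23.5 CPM with PBS and 22.2, 21.1 and 22.6 CPM with Tβ-MCA, lower in every sample but with an edgeR adjusted p of 0.314. Insig1, itself a known SREBP target, differed by 0.14 (SE 0.099) and Scap by 0.31 (SE 0.13, edgeR adjusted p = 0.166). The counts do not measure SREBP protein or its cleavage.

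Of the remaining sterol handling genes, Mylip, a ubiquitin ligase for lipoprotein receptors, differed by 0.39 (SE 0.19) and Stard4, a cholesterol carrier, by 0.13 (SE 0.12), and neither passed. In the fatty acid group Fads1 passed and the median was 0.07. Scd2 had 38.8, 28.0 and 28.9 CPM with PBS and 54.7, 45.1 and 38.6 CPM with Tβ-MCA, where the lowest Tβ-MCA sample lay just below the highest PBS sample (0.53, SE 0.23, edgeR adjusted p = 0.177). Fasn and Acaca, which build palmitate, differed by 0.19 (SE 0.12) and 0.20 (SE 0.11), and Acly by -0.06 (SE 0.080). Elovl6, which lengthens palmitate, differed by -0.04 (SE 0.21). The interval for Scd1, from -1.43 to 1.20, left a change of 2-fold in either direction possible.

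**Figure D3:**
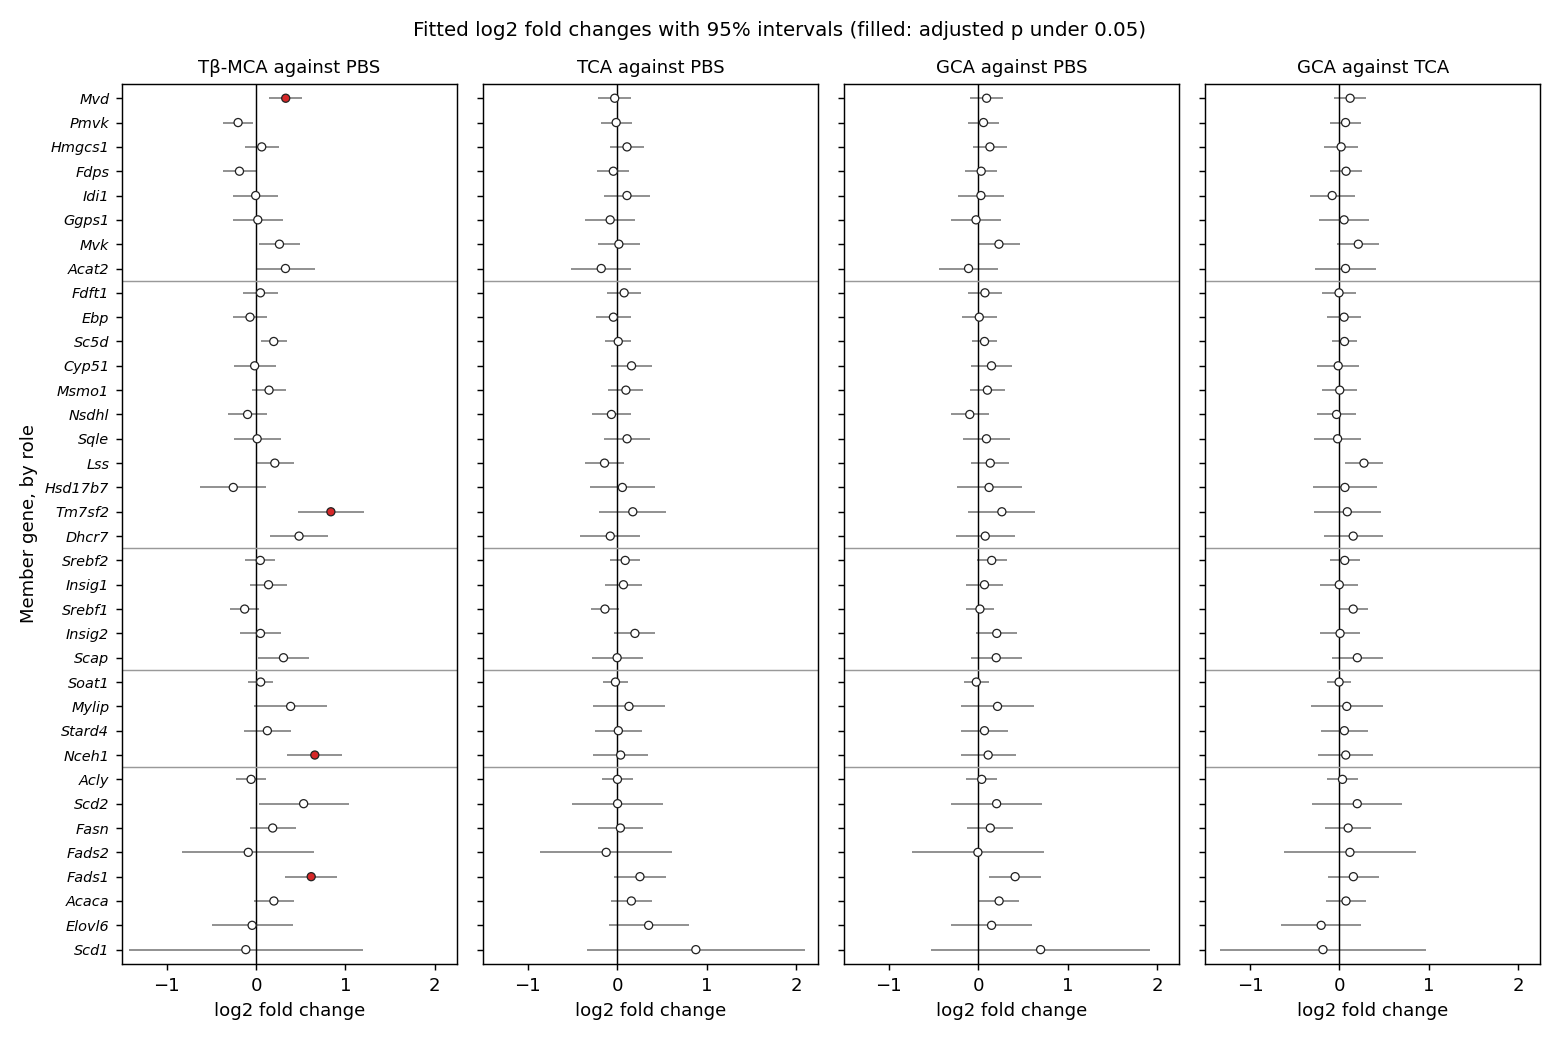
Log2 fold change of the 36 genes with its 95% interval, with 1 panel for each of the 4 comparisons and the genes ordered by role. With Tβ-MCA the filled markers of Tm7sf2, Fads1, Nceh1 and Mvd lie at 0.84, 0.62, 0.66 and 0.33, and the other 3 panels hold no gene that passed.

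With TCA none of the 36 genes passed the test. No gene of the 16761 had an edgeR adjusted p under 0.05 in this comparison (0%), while DESeq2 called 1 gene, no member among them. At an unadjusted p under 0.05 edgeR gave 546 genes (3.26%) and no member. The median log2 fold change of the members was 0.03 and 23 of them were fitted above 1-fold, against 50.2% of all genes. For 33 of the 36 (91.7%) the 95% interval lay within 1.5-fold, against 63.1% of all genes.

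The 3 members with the lowest p with TCA were Fads1, Insig2 and Srebf1. Fads1 had 7.75, 7.28 and 6.12 CPM with TCA, and 1 TCA sample fell within the PBS range (log2 fold change 0.26, SE 0.14, 95% interval -0.04 to 0.55, edgeR adjusted p = 1). Insig2, the second Insig isoform, had 7.66, 7.37 and 7.07 CPM with TCA and 6.68, 6.41 and 6.15 CPM with PBS (0.20, SE 0.11, edgeR adjusted p = 1). Its groups did not overlap, as for 4.91% of all genes in that direction. Srebf1 had 22.4, 20.6 and 22.5 CPM with TCA, all below the PBS samples (-0.14, SE 0.075, edgeR adjusted p = 1), and 4.76% of all genes were lower in this way. The genes that rose with Tβ-MCA had log2 fold changes with TCA of 0.18 for Tm7sf2, 0.04 for Nceh1 and -0.03 for Mvd, with the SEs 0.18, 0.14 and 0.086. The doses may differ between these BAs, so the values stand side by side only.

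With GCA none of the members passed either. No gene was called by edgeR's adjusted p (0%), DESeq2 called none, and 591 genes (3.53%) had an unadjusted p under 0.05. Of the members, Fads1 and Acaca did, both higher, against 1.75% of all genes in that direction. The median log2 fold change of the members was 0.10, against 0.00 for all genes, and 31 of the 36 were fitted above 1-fold, against 50.3% of all genes. For 29 of the 36 (80.6%) the 95% interval lay within 1.5-fold, against 62.2% of all genes. The members tended to vary together within groups, as described further on, and no test was made of these counts.

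Fads1 had 6.70, 8.56 and 8.30 CPM with GCA against 6.25, 5.71 and 5.74 CPM with PBS, higher in all 3 samples. The log2 fold change was 0.41 with an SE of 0.14 (95% interval 0.12 to 0.70, 1.33-fold, edgeR adjusted p = 0.999). Acaca, the acetyl-CoA carboxylase that commits carbon to fatty acids, had 35.5, 32.2 and 30.3 CPM with GCA and 31.6, 25.3 and 26.3 CPM with PBS, and the groups overlapped (0.23, SE 0.11, edgeR adjusted p = 0.999). Mvk had 14.3, 14.5 and 16.9 CPM with GCA and 12.3, 12.8 and 13.9 CPM with PBS (0.23, SE 0.11, edgeR adjusted p = 0.999). The groups did not overlap for 5 members, Fads1, Mvk, Tm7sf2, Srebf2 and Insig2, all higher with GCA, against 4.71% of all genes in that direction. Srebf2 had 132, 127 and 121 CPM with GCA, a difference of 0.15 on the log2 scale with an SE of 0.078 (edgeR adjusted p = 0.999). Among the genes that rose with Tβ-MCA, Tm7sf2 had 0.26 (SE 0.18), Nceh1 0.11 (SE 0.14) and Mvd 0.09 (SE 0.086) with GCA.

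TCA and GCA, at the same dose and time, differ in the amino acid joined to cholic acid, and 1 pair of BAs was therefore compared directly. No gene passed in edgeR's test of GCA against TCA (0%), DESeq2 called none, and 412 genes (2.46%) had an unadjusted p under 0.05. Lss, the cyclase that makes lanosterol, was the only member with an unadjusted p under 0.05. It had 33.3, 29.9 and 27.3 CPM with GCA and 29.0, 22.9 and 22.9 CPM with TCA, so the groups overlapped (log2 fold change 0.28, SE 0.10, 95% interval 0.06 to 0.49, 1.21-fold, edgeR adjusted p = 1). Srebf1 had 23.9, 24.7 and 24.3 CPM with GCA and 22.4, 20.6 and 22.5 CPM with TCA (0.16, SE 0.075, edgeR adjusted p = 1). It was the only member whose groups did not overlap, against 8% of all genes. Mvk, the third by p, differed by 0.21 (SE 0.11, edgeR adjusted p = 1).

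The glycine and the taurine conjugate were close for most members. The median log2 difference was 0.06 and 27 of the 36 genes were fitted higher with GCA, against 49.9% of all genes. The 95% interval of the difference lay within 1.5-fold for 32 members (88.9%), against 63.5% of all genes, and within 2-fold for 35 members (97.2%), against 80.4% of all genes. The exception at 2-fold was Scd1, with an interval from -1.33 to 0.97. A difference smaller than these intervals could not be seen with 3 samples a group.

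Within the groups the members tended to vary together from sample to sample. Taking each sample's log2 CPM as its deviation from the mean of its own group, Pearson's r averaged 0.30 over the 630 pairs of members in the 12 samples, against 0.00 over all pairs of genes tested. The 12 deviations share 4 group means and the same libraries, so r is given as a description. Scaling to a common library size keeps the average over all genes near 0, and other gene sets were not compared. Of the 630 pairs, 487 had an r above 0, 63 had at least 0.8 and 29 had at most -0.5. The 8 fatty acid genes had a mean r of 0.65 among themselves. The 19 genes of sterol synthesis averaged 0.31, and sterol with fatty acid genes averaged 0.36.

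The pair with the highest r was Hmgcs1 and Cyp51 at 0.96, followed by Fasn and Fads2 at 0.95. The lowest was Hsd17b7 and Nceh1 at -0.81. Stard4 and Scd2 had the highest mean r with the other 35 members, each at 0.51. Ebp, the sterol isomerase, had a mean r of -0.37, Mylip of -0.12 and Nceh1 of -0.08. The 4 genes that rose with Tβ-MCA had a mean r of 0.66 among themselves in the 12 samples and of 0.55 in the 9 samples without Tβ-MCA. Over those 9 samples the mean r was 0.34 for all members and 0.66 for the fatty acid genes.

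**Figure D4:**
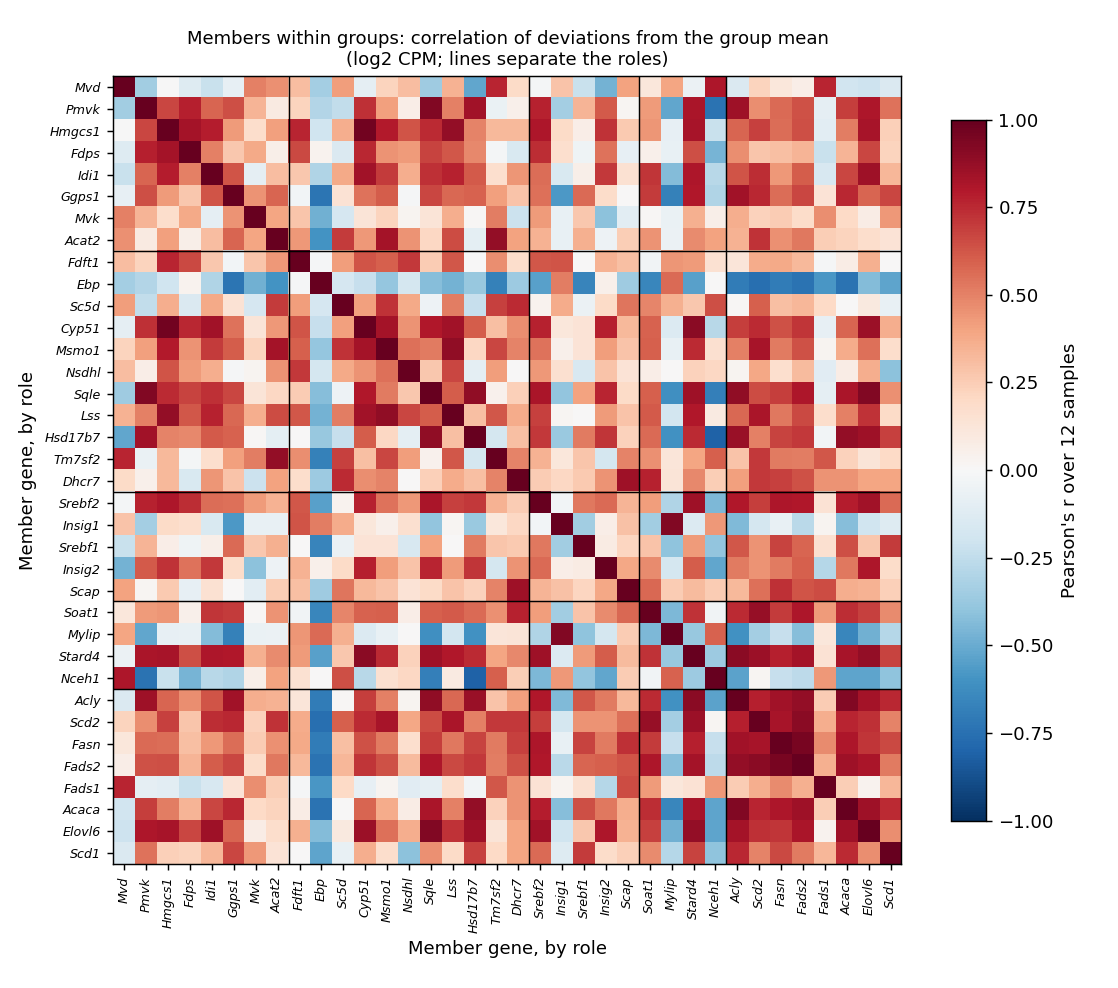
Pearson's r between each pair of the 36 genes, from the deviation of log2 CPM from the group mean in 12 samples, with genes ordered by role and the colour scale running from -1 to 1. Positive r predominates (487 of 630 pairs), also across most of the block of fatty acid genes, and Ebp forms a band of negative r.

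A further 48 lipid genes outside the list were looked up, covering SREBP processing, LXR and sterol efflux, sterol transport and esters, prenyl use, oxysterol makers and other fatty acid genes. Of these 44 could be tested, and with Tβ-MCA 2 of them rose and none fell, which is 4.55% against 7.62% of all genes. Elovl5, the elongase that works on the polyunsaturated fatty acids made by Fads1 and Fads2, had 34.6, 36.1 and 36.6 CPM with PBS and 55.0, 65.1 and 46.7 CPM with Tβ-MCA. It was 1.55-fold higher (log2 0.64, SE 0.13, edgeR adjusted p = 0.0208), with no overlap. Npc2, a lysosomal cholesterol carrier, had 116, 151 and 137 CPM with PBS and 181, 190 and 153 CPM with Tβ-MCA, 1.30-fold higher (log2 0.37, SE 0.10, edgeR adjusted p = 0.0398). In both genes sample 5 was the lowest of the Tβ-MCA samples.

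None of the 44 genes passed with TCA, with GCA or between GCA and TCA, by edgeR's adjusted p. Those with the lowest p were Tecr, Rnf145 and Fntb with TCA, at -0.14, -0.17 and -0.15 on the log2 scale. With GCA they were Fntb, Gramd1b and Elovl5, at -0.18, -0.11 and 0.21. Between GCA and TCA they were Nr1h3, which encodes the LXR-alpha receptor, Rnf145 and Pdss2, at 0.53, 0.19 and 0.33. The median log2 fold change of the 44 genes was 0.04 with Tβ-MCA, 0.02 with TCA and 0.03 with GCA.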

How the data were processed

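Bone marrow neutrophils of 12 samples were profiled by stranded mRNA sequencing. The submitters' processing notes name Trimmomatic 0.36, STAR 2.5.3a, featureCounts of Subread 1.5.1 and GRCm38; whether counting used strand is not given in the sources used here. The authors deposited raw counts per gene and RPKM values, which equal the counts divided by gene length and total.

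Counts were tested in 1 edgeR 4.0.16 quasi-likelihood fit (R 4.3.3) over all 12 samples, with TMM scaling and the filterByExpr filter, and p-values were adjusted over 16761 genes. CPM are TMM-scaled. The code was tested on simulated data. All members are named; full statistics went to members with an adjusted p under 0.05, or an unadjusted p under 0.05 with a 2-fold change, else to the 3 with the lowest p, and further lipid genes were named in the same way. The highest member of each role is given in RPKM. The members and lists were chosen with earlier results of these data known. Alternatives were DESeq2 1.42.0, limma 3.58.1 on log2(RPKM + 1) of the deposited RPKM for genes with a mean of at least 0.5, other scaling and filters, the 2 groups alone, the replicate number as a block, an unadjusted p under 0.05 with a 2-fold change, and leaving out each sample. Of 36 members, 10 have exons that overlap another gene's, 4 on the same strand (Fdps, Tm7sf2, Srebf1, Scd2). No 2 samples of a group agreed within sampling noise.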

Additional observations from a re-analysis of the deposited data

How the results depend on the processing

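With Tβ-MCA against PBS, the 4 members called became 7 with no filter, 0 with only the 2 groups in the fit (13 at an unadjusted p under 0.05) and 0 under an unadjusted p with a 2-fold change. DESeq2 and total-count scaling each called 6 members, which included the same 4. Over all genes the 1278 calls became 2079 with DESeq2, 2406 with no filter, 0 with only the 2 groups (3485 unadjusted) and 494 under the 2-fold rule. The members' median log2 fold change of 0.06 became 0.11 with total-count scaling, where that of all genes became 0.05, and 0.11 with limma on RPKM. The 0 calls over all genes became 37 with no filter and 78 under the 2-fold rule for TCA (1 with DESeq2), 36 and 89 for GCA, and 42 and 74 for GCA against TCA, with no member called there.

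Leaving out each sample gave 0 to 6 members and 0 to 3076 genes called with Tβ-MCA, and medians of the members from 0.066 to 0.13 with Tβ-MCA, -0.042 to 0.099 with TCA, 0.052 to 0.16 with GCA and 0.0095 to 0.15 for GCA against TCA. The highest counts came without Tβ-MCA sample 5 and the negative median without TCA sample 3. Of the genes with full statistics none reversed in the comparison where they are given, and 39 values of single genes, all with Tβ-MCA, lost the call. Smaller differences did turn: with TCA, Nceh1 became -0.04 without PBS sample 3 and Mvd 0.0026 and 0.02 without PBS sample 5 and TCA sample 5, and with GCA, Nceh1 became -0.03 without GCA sample 4.

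With the samples blocked by replicate number, the median with Tβ-MCA was 0.12 and 4 members were called, 3 of them shared (Mvd left, with adjusted p = 0.0687, and Scd2 entered); for TCA 3 genes were called in all. Groups share 2 numbers with PBS and 3 between TCA and GCA. Between TCA and GCA, same-numbered samples correlated at 0.07 to 0.31 (mean 0.17), against a mean of -0.09 for different numbers. With PBS, same-numbered means were 0.15 for Tβ-MCA, 0.23 for TCA and 0.23 for GCA, against -0.04, -0.06 and -0.06 for different numbers. Not every sample correlated best with its own number, so the numbers were not taken as pairs. Whether they mark pairs was not tested. With 3 samples a group, small changes of low genes such as Scd1 were beyond reach.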

Other observations

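The sample numbered 3 tended to be the highest of its group for lipid synthesis genes. In all 4 groups it had the highest CPM of the 3 samples for 8 of the 36 members (22.2%), against 8.21% of all genes tested. These were Idi1, Stard4, Ggps1, Soat1, Acly, Scd2, Acaca and Fads2. Group by group it was the highest for 24 members with PBS, 32 with TCA, 16 with Tβ-MCA and 19 with GCA, where the counts over the 16761 genes tested were 6388, 6417, 5785 and 5873. The median deviation of the members from their PBS mean was 0.23 on the log2 scale in TCA sample 3, against -0.03 in each of the other TCA samples. The summed level of 5 genes of cycling cells was also highest in sample 3 of each group, at 2943, 2757, 2876 and 2993 CPM with PBS, TCA, Tβ-MCA and GCA. So was the sum of the basophil and mast cell markers, at 12.7, 13.4, 9.72 and 13.9 CPM. The neutrophil, eosinophil and B cell sums were highest in sample 3 with PBS, TCA and GCA but not with Tβ-MCA. The part of these cell type differences in the levels of the members was not tested.

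Lrp1, a large endocytic receptor and 1 of the 44 further lipid genes tested, had the lowest log2 fold change among them with Tβ-MCA, at -1.17 with an SE of 0.48 (edgeR adjusted p = 0.174). It was chosen after its values were seen. Its level was 265, 280 and 287 CPM in the PBS samples and 54.2, 79.4 and 237 CPM in Tβ-MCA samples 3, 4 and 5. The order of the Tβ-MCA samples was that of the summed monocyte and macrophage markers (324.3, 394.6 and 883.2 CPM), and the part of those cells in the difference was not tested.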
